A study of Mus musculus with 5 samples.

Results

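The genes described here are the transcription factors of the SOX, FOX, KLF and GATA families, chosen by name from the deposited table: every numbered Sox, Klf and Gata gene and every lettered and numbered Fox gene, with Sox2 and Klf4 left out. The rule found 43 of the 12621 genes in the table, namely 5 SOX, 23 FOX, 12 KLF and 3 GATA genes, and it used no measured value. Mouse annotation (GENCODE M21, GRCm38) names 84 protein-coding genes that fit the same rule, 18 SOX, 44 FOX, 16 KLF and 6 GATA, and those without a row in the table were not analysed here. Messenger RNA was sequenced from mesenchymal stem cells (MSCs), stromal cells that grow attached to plastic and give rise to cartilage, fat and bone. The wild-type group held 2 libraries and the knockout group 3, the knockout cells lacking TSG-6, a secreted hyaluronan-binding protein encoded by Tnfaip6. Both groups carry the same strain label, Balb/c with C.129S6 in brackets, and the labels give no age, tissue of origin or passage, nor what was deleted from the gene.

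SOX proteins bind the minor groove of DNA through an HMG box and bend it. Sox9 is the master regulator of cartilage formation and acts there with Sox5. FOX proteins bind DNA through a winged helix: the FOXF and FOXC genes pattern mesenchyme and vessels, FOXO proteins are held in the cytoplasm by insulin and AKT signalling and turn on stress-resistance and starvation genes when released, and Foxm1 drives genes of mitosis. KLF proteins carry C-terminal zinc fingers that bind GC-rich and CACCC sites and act in fat formation, vessel tone and growth arrest, and GATA proteins bind the GATA motif through zinc fingers and specify blood, endoderm, heart and mesothelial fates.

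Reads assigned to genes numbered between 13605555 and 26658725 per library. Column names add the suffixes C1 and SE to the wild-type libraries and C1, C2 and SE to the knockout libraries, and the labels do not explain them. The design text speaks of 2 biological replicates for each cell type, so what sets the third knockout library apart is not given in the sources used here. Normalised counts, on the CPM scale (counts per sequencing library scaled to a common total), are listed in the order C1, SE for wild type (n = 2) and C1, C2, SE for knockout (n = 3). A fold is a ratio of group means, and a log2 fold change is knockout against wild type on the log2 scale of the value plus 0.5, with its standard error (SE of the estimate) and a limma p-value adjusted by Benjamini-Hochberg over 12484 tested genes. A gene is said to have risen or fallen where that adjusted p was under 0.05.

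Tnfaip6, the targeted gene, read 6.04 and 3.21 normalised counts in the wild type and 1.65, 2.38 and 1.36 in the knockout. Every knockout library lay below both wild-type libraries, but reads remained, and the log2 fold change of -1.13 (SE 0.37) did not pass the threshold (adjusted p = 0.0578 by limma). The first principal component, with 80.4% of the variance, parted the genotypes, and the second, with 14.7%, parted SE from C libraries. Of 12 MSC markers 11 were in the table, and 4 of these fell while 0 rose by limma (2 at an unadjusted p under 0.05, 0 by edgeR and 2 by DESeq2). That is 36.4% of the 11, near the 34.3% of all tested genes that passed. Nt5e (CD73) read 77.4 and 121 in the wild type and 0.358 to 0.946 in the knockout, Alcam 35.6 and 38.6 against 0 to 0.378, Cd44 385 and 325 against 28.6 to 40.5, and Ly6a (Sca-1) 412 and 284 against 17.3 to 48.4. Pdgfrb (49.0 and 145 against 240 to 860) and Vcam1 (135 and 92.8 against 166 to 269) lay higher without overlap but did not pass. In the other 5 the groups overlapped. The summed level of the 11, carried mainly by Cd9 and Itgb1, was 4307 and 3708 against 3393 to 4149. Markers of other cell types moved with genotype as well. Mesothelial or epithelial markers (4 of 10 in the table) summed to 321 and 368 in the wild type against 7.0 to 12.7. Smooth muscle markers (7 of 8) summed to 161 and 204 against 3210 to 6675. For chondrocyte markers (3 of 7) the sum was 0.486 and 0.466 against 10.2 to 485. For Schwann or neural crest markers (3 of 7) it was 2.72 and 1.86 against 9.83 to 12.7. The smooth muscle sum was mostly Acta2 in the knockout and mostly Smtn in the wild type. Smtn lay lower in the knockout (95.4 and 155 against 48.4 to 83.1) but did not pass. The highest chondrocyte sum, that of knockout SE, was mostly Col2a1 (415). The mesothelial or epithelial sum was mostly Msln, Krt18 and Krt19 fell with it, and Krt7 rose (0 and 0.259 against 3.37 to 6.82). Blood cell markers (2 of 11) summed to 5.03 and 3.11 against 6.52 to 19.1, and Csf1r rose (0.0405 and 0.518 against 3.73 to 9.50). Endothelial markers (3 of 10) summed to 5.39 and 4.61 against 4.33 to 6.85, but Flt1 fell (3.77 and 2.49 against 0.0717 to 0.141). Vwf, which did not pass, read 0.0405 and 0 against 0.376 to 3.80. The part of such cells in the results that follow was not tested, and in bulk RNA fewer cells of a type and less RNA per cell cannot be told apart.

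Of the 43 genes, 42 passed the filter on low values, and 4 of these did so through a single genotype (among them Foxq1 through the wild type, and Foxl1 and Foxp2 through the knockout). Foxa1, a pioneer factor of endoderm, did not pass. By limma 21 of the 42 passed the test, 10 higher and 11 lower in the knockout, where 34.3% of all tested genes did so, 17.2% higher and 17.1% lower. No SOX gene rose and 3 fell, 5 FOX genes rose and 5 fell, 5 KLF genes rose and 2 fell, and no GATA gene rose and 1 fell. The SOX and GATA counts of risen genes were also 0 at an unadjusted p under 0.05, by edgeR and by DESeq2. The median log2 fold change was -0.43 over the 42 genes and -0.09 over all tested genes, and the median size of the change regardless of sign was 1.29 against 0.71. Groups did not overlap for 27 of the 42, 14 with the knockout above and 13 with it below, where 58.8% of all tested genes did not overlap. All 21 genes that passed the test were among these.

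The counts depended on the 2 wild-type libraries. Without wild-type C1, 5 rose and 6 fell, and without wild-type SE, 6 rose and 4 fell. Of the 21, 7 (Foxn3, Foxs1, Klf2, Klf5, Klf15, Sox5 and Sox9) passed the test under all 18 alternatives. A further 2, among them Foxq1, reach the filter only through both wild-type libraries and were not tested when 1 of these was left out.

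**Figure D1:**
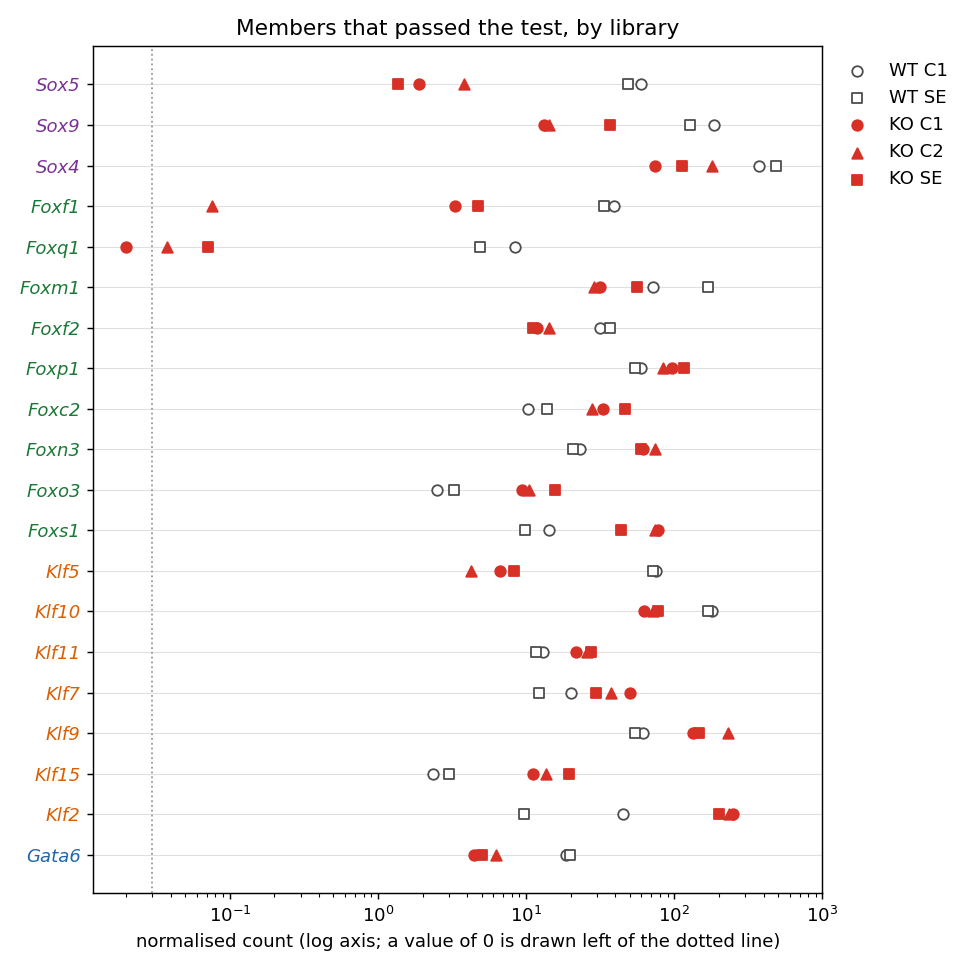
Normalised counts (log axis) of the SOX, FOX, KLF and GATA genes that passed the test and are reported, with 1 symbol per library, open for wild type and red for knockout. A value of 0 is drawn left of the dotted line. The knockout and wild-type symbols separate for each gene drawn, from Foxq1 at 8.39 and 4.87 against 0.0717 or less, to Foxp1, whose wild-type 59.1 and 54.4 lie below its knockout 83.2 to 116.

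The chondrogenic pair Sox5 and Sox9 and the progenitor factor Sox4 made up the lower SOX genes. Sox5 (ENSMUSG00000041540, GRCm38 chr6:143828425-144781977) read 59.5 and 49.1 normalised counts in the wild type and 1.88, 3.78 and 1.36 in the knockout. All knockout libraries were low and the groups were far apart. The mean fell from 54.3 ± 7.39 to 2.34 ± 1.27 (SD), which was 23.2-fold lower, with a log2 fold change of -4.35 (SE 0.42, limma adjusted p = 0.00061). Sox9 (ENSMUSG00000000567, chr11:112782224-112787760) read 184 and 127 against 13.2, 14.3 and 36.8. Knockout SE was the highest of the knockout libraries, yet under 1 in 3 of the lower wild-type value. The Sox9 mean was 7.27-fold lower (156 ± 40.2 against 21.4 ± 13.4), with a log2 fold change of -2.97 (SE 0.48, limma adjusted p = 0.0046), and 11.4-fold lower without knockout SE.

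Sox4 (chr13:28948919-28953713), a factor of undifferentiated progenitors, read 375 and 485 normalised counts in the wild type and 74.0, 178 and 113 in the knockout. The knockout libraries spread widely but stayed below the wild type. The mean was 3.53-fold lower, with a log2 fold change of -1.89 (SE 0.38, limma adjusted p = 0.0112). Over its alternatives the adjusted p ran from 0.000457 to 0.0647, the latter without wild-type SE. Sox12 and Sox13 did not pass the test. Sox12, a relative of Sox4 in the SOXC group, read 6.40 and 12.5 against 3.81, 4.31 and 10.03 (log2 fold change -0.65, SE 0.50, adjusted p = 0.356), and Sox13, a relative of Sox5, read 1.38 and 6.79 against 1.55, 1.17 and 3.22 (-0.66, SE 0.63, adjusted p = 0.459). In both, the groups overlapped.

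Cartilage genes that SOX9, SOX5 and SOX6 are known to activate did not follow these factors in a single direction. Of 13 listed genes 7 were tested: 4 rose, 2 fell and the median log2 fold change was 2.02. Of the tested genes of this list 85.7% passed, against 34.3% of all tested genes. All 7 reached the filter through a single genotype, which favours a pass, so the shares are not like for like. Col2a1, the main collagen of cartilage, had no read in either wild-type library and 69.5, 2.84 and 415 normalised counts in the knockout libraries. Knockout Col2a1 was at least 1173-fold higher than a floor of 3 reads in each wild-type library, but the knockout libraries differed widely among themselves. Matn4, a matrilin of cartilage matrix, went from 0 to 824 reads over the group (at least 93.2-fold higher). Comp, which binds collagen fibrils, went from 2 to 371 reads, a read rate ratio of 132 (exact 95% interval 36.4 to 1097).

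The cartilage genes that fell were Col11a1 and Hapln1. Col11a1, a minor collagen of cartilage fibrils also made by other mesenchyme, went from 2478 wild-type reads to 2 knockout reads, a rate ratio of 1737 (exact 95% interval 480 to 14351). Hapln1, which links hyaluronan to proteoglycan, went from 157 reads to 0 (at least 21.6-fold lower). Matn3 rose as well (log2 fold change 2.02, SE 0.48, adjusted p = 0.0195), whereas Col11a2 did not pass (1.35, SE 0.50, adjusted p = 0.082). Without wild-type C1 or without wild-type SE, Comp and Matn4 still passed, Col2a1 (adjusted p = 0.101 and 0.095) and Matn3 (0.105 and 0.0913) did not, and Col11a1 and Hapln1 were not tested, because they then failed the filter. Col2a1 did not pass without knockout C1 either (0.0606). The intervals and floors here cover counting error only.

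Fox genes that stand side by side on a chromosome differed in direction. On chromosome 8, Foxf1 (ENSMUSG00000042812, GRCm38 chr8:121084386-121088144), a factor of lung and gut mesenchyme, lies 28.0 kb from Foxc2 (ENSMUSG00000046714, chr8:121116171-121118895), a factor of lymphatic valves and mesenchyme, and Foxl1, a marker of gut stromal cells, lies 9.05 kb beyond. Foxf1 read 38.9 and 33.4 normalised counts in the wild type and 3.29, 0.0757 and 4.73 in the knockout. Knockout C2 was the lowest, with 2 reads against 70 in C1 and 66 in SE. The mean fell from 36.1 ± 3.86 to 2.70 ± 2.38, 13.4-fold lower (21.5-fold without knockout SE), with a log2 fold change of -4.02 (SE 0.91, limma adjusted p = 0.0163). Leaving out wild-type C1 or SE took the call away (adjusted p = 0.0708 without C1 and 0.0600 without SE, over a range from 0.00179 to 0.0708 in the alternatives).

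Foxc2 read 10.3 and 13.7 normalised counts in the wild type and 32.9, 27.7 and 46.3 in the knockout, so it moved the other way with no overlap. Its mean rose 2.96-fold, with a log2 fold change of 1.51 (SE 0.32, limma adjusted p = 0.0129, and 0.0895 without wild-type C1, the highest of a range that starts at 5.33e-05). Within each library the ratio of Foxc2 to Foxf1 was 0.266 and 0.411 in the wild type and 9.99, 366.5 and 9.79 in the knockout. Foxf1 was thus the more abundant of the pair in both wild-type libraries and Foxc2 in all 3 knockout libraries, as normalised counts not scaled by length. Foxf1, Foxc2 and Foxl1 each overlap the annotated gene Gm20388 on the same strand. Of the 43 genes 22 overlap another annotated gene, and the effect of such overlaps on the counts was not tested. Foxl1 was near the detection limit at 0.648 and 0.673 against 1.32, 1.44 and 1.36, and its log2 fold change of 0.69 (SE 0.25) did not pass (adjusted p = 0.0722). Mthfsd, a gene of folate metabolism that lies between Foxf1 and Foxc2, had a log2 fold change of 0.03 (SE 0.27, limma adjusted p = 0.949).

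Fendrr, a long noncoding RNA transcribed away from Foxf1 on the other strand, starts 1.28 kb from the Foxf1 start. It had 161 reads in the wild type (3.77 and 3.52 normalised counts) and 0 in the knockout, at least 23.3-fold lower, with a log2 fold change of -3.05 (SE 0.24, limma adjusted p = 0.000292). Fendrr and Foxf1 were therefore both low in the knockout. RefSeq (GRCm38.p6) gave promoter entries for 28 of the 43 genes and none for Foxf1, and the bases before the Fendrr start are shown because they face Foxf1. The 250 bases end at the start of Fendrr (chr8:121083111-121083360, minus strand, printed 5′ to 3′ along the gene), and capitals mark the only match to the FOX motif GTAAACA.

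Fendrr: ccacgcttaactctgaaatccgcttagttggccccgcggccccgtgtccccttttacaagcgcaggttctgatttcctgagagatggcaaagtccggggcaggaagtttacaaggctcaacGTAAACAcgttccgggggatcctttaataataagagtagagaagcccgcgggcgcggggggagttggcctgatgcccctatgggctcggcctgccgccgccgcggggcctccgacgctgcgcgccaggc

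On chromosome 13, Foxq1, Foxf2 and Foxc1 follow each other over 256 kb. Foxq1 (chr13:31556134-31560976), a factor of epithelia and hair, read 8.39 and 4.87 normalised counts in the wild type and 0, 0.0378 and 0.0717 in the knockout. That is 301 reads against 2, a rate ratio of 211 (exact 95% interval 57.9 to 1750), and the log2 fold change of -3.69 (SE 0.31, limma adjusted p = 0.000373) rests on the added 0.5 in the knockout. Foxf2 (ENSMUSG00000038402, chr13:31625816-31631403), a factor of gut, palate and pericyte mesenchyme, read 31.3 and 36.6 against 11.9, 14.3 and 11.1. The groups were each tight and apart. Foxf2 was 2.73-fold lower (33.9 ± 3.73 against 12.4 ± 1.64), with a log2 fold change of -1.42 (SE 0.27, limma adjusted p = 0.00879, and from 0.000128 to 0.0817 over its alternatives). Its call was lost without wild-type C1 (0.0529) and without wild-type SE (0.0817).

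Foxc1, the third gene of this cluster and a niche factor of marrow stromal cells, read 78.2 and 143 normalised counts in the wild type and 100.3, 134 and 228 in the knockout. The groups overlapped, and the log2 fold change of 0.46 (SE 0.42) did not pass (adjusted p = 0.439). With the suffix as a block it did (adjusted p = 0.013, the lowest of a range that ends at 0.978), and SE exceeded C in both genotypes. The ratio of Foxc1 to Foxf2 was 2.499 and 3.90 in the wild type and 8.43, 9.38 and 20.5 in the knockout. Foxf2 has a RefSeq entry, and the 250 bases before its start (chr13:31625566-31625815, plus strand) are shown as the promoter of a lower gene in this cluster, with its 2 matches to the GC box GGGCGG in capitals.

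Foxf2: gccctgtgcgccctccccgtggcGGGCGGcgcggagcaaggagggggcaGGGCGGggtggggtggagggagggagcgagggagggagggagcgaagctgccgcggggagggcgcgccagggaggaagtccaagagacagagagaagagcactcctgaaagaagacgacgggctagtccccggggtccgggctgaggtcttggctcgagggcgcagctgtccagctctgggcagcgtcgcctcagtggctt

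**Figure D2:**
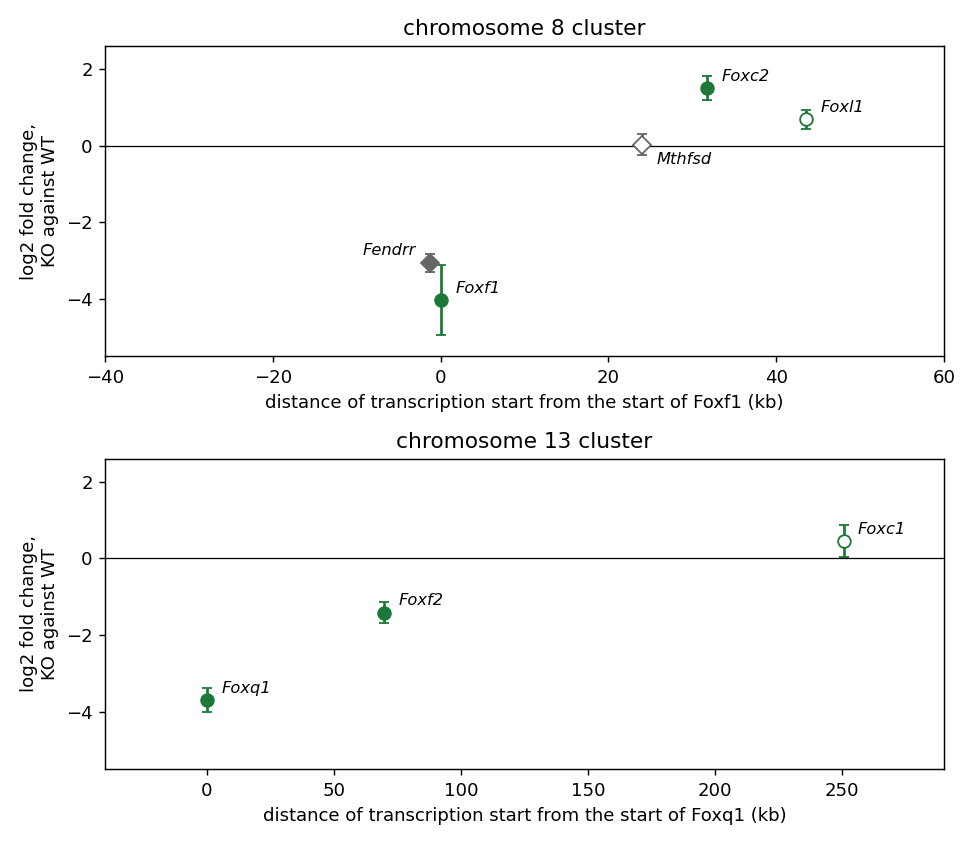
Log2 fold change, knockout against wild type, of the genes of the Fox clusters on chromosomes 8 and 13 by distance of the transcription start from the first Fox gene (kb). Green circles are Fox genes and grey diamonds their neighbours, filled where the test was passed, with bars of 1 SE. Fendrr and Foxf1 lie at -3.05 and -4.02, Mthfsd at 0.03 and Foxc2 at 1.51, while Foxq1 and Foxf2 lie at -3.69 and -1.42 and Foxc1 at 0.46.

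Of the FOXO genes, factors of stress and starvation, Foxo3 rose and Foxo1 missed the threshold. Foxo3 (ENSMUSG00000048756, chr10:42181841-42276755) read 2.51 and 3.26 normalised counts in the wild type and 9.36, 10.4 and 15.6 in the knockout. The groups did not overlap, and the mean rose 4.08-fold from 2.89 ± 0.531 to 11.8 ± 3.36 (log2 fold change 1.83, SE 0.34, adjusted p = 0.00813). Without wild-type C1 the adjusted p was 0.0656, the highest of a range that starts at 6.04e-06. Foxo1, the main insulin-responsive FOXO, read 20.7 and 23.5 against 37.1, 34.7 and 40.8. Its groups did not overlap either, at a ratio of 1.70, but the log2 fold change of 0.75 (SE 0.24) missed the threshold (adjusted p = 0.0512, with a range from 0.00399 with the suffix block to 0.249). Foxo1 was the more abundant of the pair in all 5 libraries, since the ratio of Foxo3 to Foxo1 was 0.121 and 0.139 in the wild type and 0.253, 0.300 and 0.383 in the knockout, as counts not scaled by length.

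The 50 tested genes around Foxo3 had a median log2 fold change of 1.18, so neighbours were higher too, and their part in the result was not tested. Among them was Sesn1, a stress-response gene whose body lies 273 kb away. The 250 bases before the RefSeq start of Foxo3 held 5 matches to the GC box GGGCGG on either strand.

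Of 19 tested textbook FOXO targets 9 rose and 0 fell, where 17.2% of all tested genes rose and 17.1% fell, with a median log2 fold change of 0.84. At an unadjusted p under 0.05 these counts were 10 and 0, by edgeR 9 and 0 and by DESeq2 10 and 0. The lower count was 1 with the suffix block and 1 without knockout C2. Pdk4, which shuts pyruvate out of the mitochondrial oxidation pathway, read 12.0 and 12.4 normalised counts in the wild type and 176, 133 and 230.1 in the knockout (14.8-fold, log2 fold change 3.80, SE 0.28, adjusted p = 0.000256). Fbxo32, a ubiquitin ligase of muscle wasting, read 6.44 and 5.85 against 29.5, 33.9 and 35.6 (5.37-fold, 2.33, SE 0.26, adjusted p = 0.00117). Sesn1 read 11.8 and 12.6 against 46.8, 50.5 and 50.8 (4.05-fold, 1.97, SE 0.23, adjusted p = 0.00139), in the same window median of 1.18 as Foxo3. All 3 had tight groups far apart. Ccng2, Cat, Gadd45b, Pink1, Txnip and Cited2 also rose, whereas the cell cycle inhibitors Cdkn1a and Cdkn1b did not pass, at log2 fold changes of -0.35 (SE 0.31) and 0.41 (SE 0.28). Cited2 was at 0.84, with a median of 0.64 over the genes around it. The count of risen targets was 3 without wild-type C1 and 5 without wild-type SE.

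Upstream of FOXO, 1 of 16 genes of the insulin and PI3K pathway rose and 1 fell, with a median log2 fold change of -0.11. That is 12.5% of the list, against 34.3% of all tested genes. Sgk3, a kinase related to AKT, read 4.26 and 2.85 normalised counts in the wild type and 22.1, 14.3 and 20.3 in the knockout (5.32-fold, log2 fold change 2.26, SE 0.34, adjusted p = 0.00361). Pdpk1, the kinase that activates AKT, read 53.2 and 49.8 against 27.3, 26.4 and 34.5 (log2 fold change -0.81, SE 0.24, adjusted p = 0.0438). Pik3cb, a catalytic subunit of PI3K, was at -1.91 (SE 0.60) and did not pass (adjusted p = 0.0506). The lower count was 0 without wild-type C1, wild-type SE, knockout C1 or knockout C2, and 4 without knockout SE. RNA levels do not show where FOXO proteins are in the cell, and this was not measured.

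Foxm1 (ENSMUSG00000001517, chr6:128362967-128376146), the FOX factor of mitosis, read 71.8 and 169 normalised counts in the wild type and 31.4, 28.9 and 56.2 in the knockout. SE was the higher library in both genotypes, and the groups did not overlap. The mean fell from 121 ± 69.1 to 38.8 ± 15.1, 3.11-fold lower, with a log2 fold change of -1.56 (SE 0.45, limma adjusted p = 0.0385). Without wild-type SE the fold was 1.85 and the adjusted p 0.21, the highest of a range that starts at 0.000329. The call was also lost without knockout C1 (0.0865), without knockout C2 (0.117) and with plain CPM scaling (0.0525).

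Of 14 textbook FOXM1 targets 0 rose and 8 fell, where 17.1% of all tested genes fell, and their median log2 fold change was -1.24. At an unadjusted p under 0.05 the counts were 0 and 10, and 0 and 8 by edgeR and by DESeq2. Cdc25b, a phosphatase that starts mitosis, read 82.3 and 118 normalised counts against 20.1, 18.4 and 15.5 (5.56-fold lower, log2 fold change -2.43, SE 0.27, adjusted p = 0.00113). Skp2, which marks cell cycle inhibitors for destruction, read 14.3 and 16.6 against 4.28, 2.99 and 3.37 (4.37-fold lower, -1.99, SE 0.30, adjusted p = 0.00371). Top2a, the topoisomerase of dividing cells, read 298 and 356 against 117, 74.2 and 112 (3.23-fold lower, -1.71, SE 0.27, adjusted p = 0.0045). The others that fell were Aurkb, Plk1, Ccnb1, Nek2 and Cks1b, and Kif20a, a kinesin of cytokinesis, stood at -0.03 (SE 0.29). Without wild-type C1 4 fell, and without knockout C2 5 fell.

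**Figure D3:**
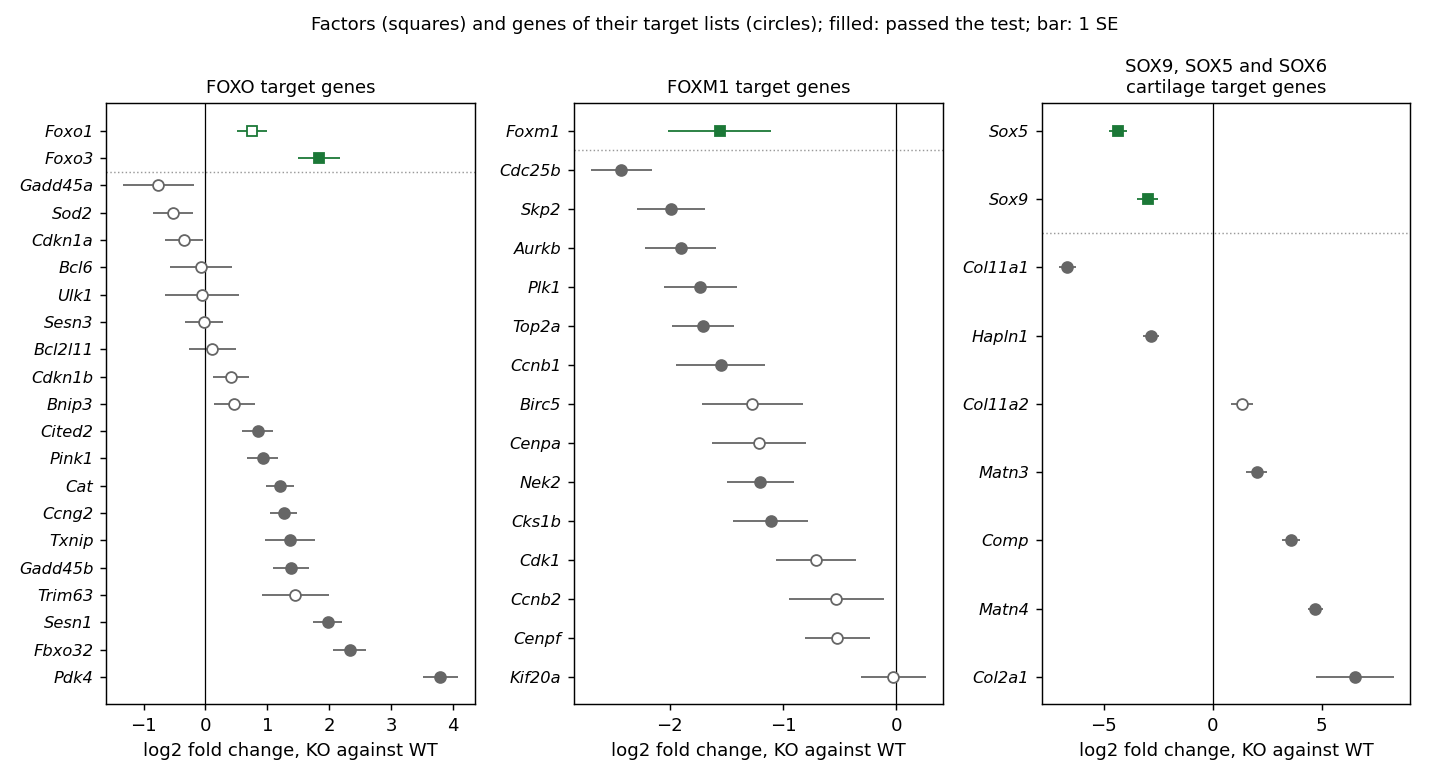
Log2 fold change, knockout against wild type, of FOXO, FOXM1 and SOX factors (green squares, above the dotted line) and of the tested genes of their target lists (grey circles), filled where the test was passed, with bars of 1 SE. FOXO targets reach from -0.76 for Gadd45a to 3.80 for Pdk4, FOXM1 targets from -2.43 for Cdc25b to -0.03 for Kif20a, and the SOX cartilage targets from -6.66 for Col11a1 to 6.52 for Col2a1.

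Among the remaining FOX genes, Foxs1, Foxn3 and Foxp1 rose. Foxs1 (ENSMUSG00000074676, chr2:152931898-152933208), a factor of pericytes and neural crest, read 14.2 and 9.79 normalised counts in the wild type and 78.0, 73.6 and 43.6 in the knockout. Knockout SE was the lowest of its group and still well above the wild type. Its mean rose 5.42-fold from 12.0 ± 3.14 to 65.1 ± 18.7 (log2 fold change 2.37, SE 0.35, adjusted p = 0.00322). Foxn3, a transcriptional repressor, read 23.2 and 20.6 against 61.7, 74.2 and 59.8 (2.98-fold, 1.55, SE 0.23, adjusted p = 0.00365), with a median of 0.59 over the 50 genes around it. Foxp1, a repressor that acts in mesenchymal progenitors and lymphocytes, read 59.1 and 54.4 against 96.7, 83.2 and 116. Its rise was modest at 1.74-fold (0.78, SE 0.23, adjusted p = 0.0425), and the adjusted p was between 0.0676 and 0.199 when any 1 library was left out, 0.0597 without the trend in limma and 0.0632 without both SE libraries, from a lowest value of 0.00469.

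Foxp2 and Foxa1 were at the detection limit. Foxp2, a factor of speech circuits and lung, had no read in the wild type and 1.03, 0.303 and 2.36 normalised counts (63 reads) in the knockout, at least 8.91-fold higher. It did not pass by limma (adjusted p = 0.0526) and did by edgeR (0.0271), with a range from 0.000529 to 0.189. Foxa1 had 2 wild-type and 37 knockout reads, a rate ratio of 13.2 (exact 95% interval 3.40 to 113), and was not tested by limma under the main filter.

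Several ubiquitous FOX genes were higher in SE than in C libraries of the same genotype. Foxk2, a factor of metabolism and autophagy, read 16.8 and 46.1 normalised counts in the wild type and 5.31, 6.85 and 18.9 in the knockout, so its knockout SE value lay above wild-type C1. Foxp4, a partner of Foxp1 and Foxp2, read 9.32 and 22.2 against 2.68, 3.40 and 9.39, and Foxj3 read 21.6 and 35.2 against 7.62, 8.85 and 19.3. In Foxk2 and Foxp4 the groups overlapped and in Foxj3 they did not. None passed by limma, with log2 fold changes from -1.59 to -1.30 and adjusted p of 0.101, 0.0847 and 0.0729. With the suffix as a block all 3 passed (adjusted p = 0.00162, 0.00277 and 0.00346), and so they did without both SE libraries and with DESeq2. The genes around Foxj3 had a median log2 fold change of -0.92. Foxj3 shares bases with Frg2f1 on the opposite strand, and whether counting used the strand is not stated.

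Over the 42 genes, 22 were higher in SE than in C in both genotypes, among them 14 of 22 tested FOX genes, against 36.6% of all tested genes. Each genotype holds both suffixes, but in unequal shares, since only the knockout has a C2 library. The main test has no suffix term, so a difference between SE and C libraries can enter its fold changes. With the suffix block 29 of the 42 passed the test instead of 21, while the share of all tested genes that passed rose to 60.6%. With DESeq2 27 of the 42 passed (38.7% of all tested genes) and with edgeR 22 (32.7%). The 8 added genes were Foxc1, Foxj3, Foxk2, Foxn2, Foxo1, Foxp2, Foxp4 and Klf6. Foxd1, Foxd2, Foxj2, Foxk1 and Foxn2 did not pass in the main test, with log2 fold changes from -1.05 to 0.42 and adjusted p from 0.183 to 0.641. Foxj2, the most abundant of these, read 18.2 and 49.6 normalised counts against 14.4, 13.9 and 50.8, with SE high in both genotypes and overlapping groups. Foxd2os, a transcript on the strand opposite Foxd2, fell from 8.55 and 7.15 to 2.87, 2.23 and 1.79 normalised counts (log2 fold change -1.59, SE 0.31, adjusted p = 0.00983). The genes around Foxd2os had a median of -0.74. Of 13 listed opposite strand or overlapping transcripts, Foxd2os, Fendrr and Sox2ot were in the table. All 3 fell, against 17.1% of all tested genes, and 0 rose at an unadjusted p under 0.05, by edgeR or by DESeq2. Fendrr and Sox2ot had no knockout read and entered the test through the wild type alone, so they could not have risen. The lower count was 1 with the filter at 5 and 1 without both SE libraries. Foxd2os did not pass without wild-type C1 (adjusted p = 0.091) or without wild-type SE (0.0644), and Fendrr and Sox2ot were not tested there, because they reach the filter only through both wild-type libraries.

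**Figure D4:**
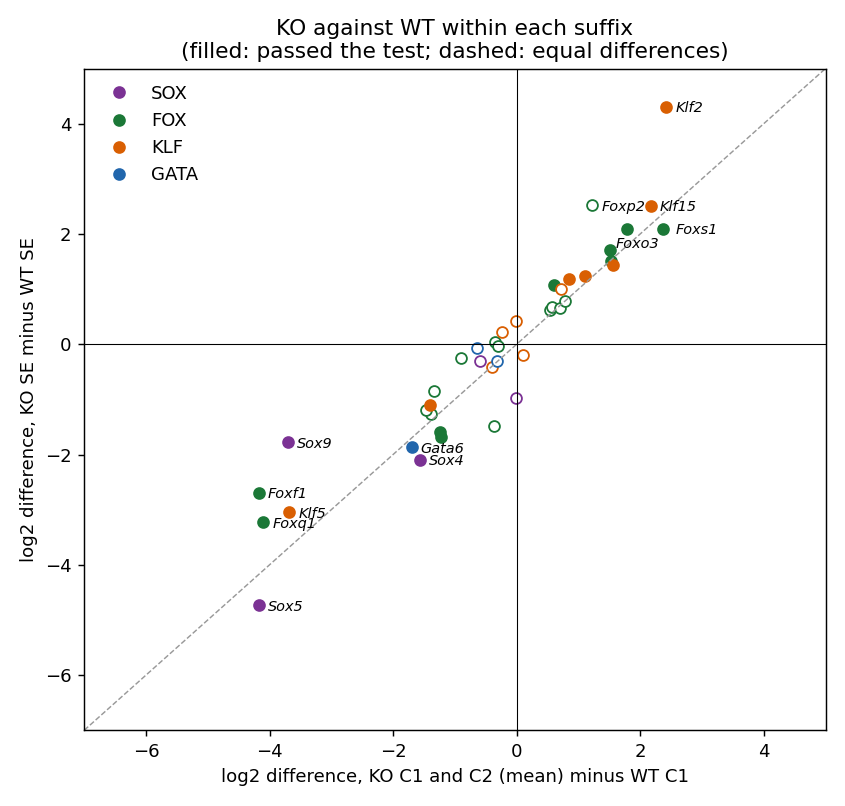
Knockout minus wild type on the log2 scale within the C libraries (x axis, mean of knockout C1 and C2 minus wild-type C1) and within the SE libraries (y axis) for the tested genes that are reported, coloured by family, filled where the test was passed. The dashed line marks equal differences. Of all 42 tested genes 38 have the same sign in both (90.5%, against 87.8% of all tested genes), Sox9 is lower by more in C (-3.70) than in SE (-1.78), and Klf2 is higher by more in SE (4.31) than in C (2.42).

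The KLF genes held both strong rises and strong falls. Klf2 (ENSMUSG00000055148, chr8:72319033-72321656), a flow-responsive factor of endothelium that also restrains fat cell formation, read 44.7 and 9.69 normalised counts in the wild type and 248, 235 and 202 in the knockout. The wild-type libraries differed more from each other than the knockout libraries did, and all knockout values were far above both. The mean rose 8.39-fold from 27.2 ± 24.8 to 228 ± 24.0 (log2 fold change 3.41, SE 0.58, adjusted p = 0.00578), 23.6-fold without wild-type C1 and 5.10-fold without wild-type SE. Klf15 (ENSMUSG00000030087, chr6:90462576-90475238), a glucocorticoid-induced factor that promotes fat cell formation and amino acid breakdown, read 2.35 and 3.00 against 11.1, 13.5 and 19.5. It rose 5.50-fold (2.23, SE 0.35, adjusted p = 0.00402). Klf9 (ENSMUSG00000033863, chr19:23141226-23168134), another hormone-induced factor of fat cell formation, read 61.2 and 53.9 against 133, 232 and 147, and rose 2.97-fold (1.52, SE 0.29, adjusted p = 0.00917, with 0.0599 without wild-type SE as the highest of a range that starts at 8.1e-05).

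Klf7 and Klf11 rose less. Klf7, a factor of neurite growth that also represses fat cell formation, read 20.1 and 12.1 normalised counts in the wild type and 49.9, 37.4 and 29.5 in the knockout (2.42-fold, log2 fold change 1.26, SE 0.35, adjusted p = 0.0328). Klf11, a TGF-beta-inducible repressor, read 12.97 and 11.7 against 21.7, 25.9 and 27.2 (2.02-fold, 0.98, SE 0.26, adjusted p = 0.03). The groups did not overlap in either, and the genes around them had medians of 0.51 and 0.47. Both calls were lost without wild-type C1, wild-type SE, knockout C1 or knockout C2, with adjusted p up to 0.19 for Klf7 and 0.165 for Klf11, from lowest values of 0.00204 and 0.00192. Without wild-type C1, knockout C1 or knockout C2 3 KLF genes rose, and without wild-type SE 2 did.

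Klf5 and Klf10 fell. Klf5 (ENSMUSG00000005148, chr14:99298691-99315036), a factor of epithelia, smooth muscle and early fat cell formation, read 75.6 and 71.7 normalised counts in the wild type and 6.63, 4.28 and 8.24 in the knockout. Both groups were tight, and the mean fell from 73.7 ± 2.75 to 6.38 ± 1.99, 11.5-fold lower (log2 fold change -3.47, SE 0.34, adjusted p = 0.000635). Klf10 (chr15:38291463-38300706), an early TGF-beta response gene, read 179 and 168 against 62.3, 72.0 and 78.2 and was 2.44-fold lower (-1.29, SE 0.21, adjusted p = 0.00515). The median over the 50 genes around Klf10 was -0.69, and without wild-type C1 its adjusted p was 0.0522, the highest of a range that starts at 3.11e-05. Without that library 1 KLF gene fell.

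Klf6, an abundant immediate early factor of stromal cells, read 309 and 176 normalised counts in the wild type and 475, 547 and 353 in the knockout. The groups did not overlap, but the log2 fold change of 0.95 (SE 0.33) did not pass (adjusted p = 0.0666), although it did with the suffix block (0.00199), with DESeq2 (0.0348) and without both SE libraries (0.0379), in a range that ends at 0.365. Klf3, a repressor in fat cell formation, read 120 and 104 against 134, 104 and 139 (0.16, SE 0.23, adjusted p = 0.625), and shares bases with C230096K16Rik on the same strand. Klf13, a repressor of the same subgroup as Klf9, read 32.8 and 37.6 against 22.4, 27.1 and 28.0 (-0.44, adjusted p = 0.214). Klf8 and Klf16 stood at -0.11 and -0.23 with overlapping groups.

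Promoter windows of Klf9 and Klf15, hormone-induced KLF genes that both rose, are shown for comparison. They are the 250 bases before the RefSeq starts of Klf9 (chr19:23140976-23141225) and Klf15 (chr6:90462326-90462575), both on the plus strand of GRCm38.p6. Capitals mark GTAAACA and ACAAT, the FOX and SOX motifs, or the GC box GGGCGG, on either strand. Klf9 held 1 FOX and 2 SOX matches and no GC box, and Klf15 held 1 GC box and neither other motif.

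Klf9: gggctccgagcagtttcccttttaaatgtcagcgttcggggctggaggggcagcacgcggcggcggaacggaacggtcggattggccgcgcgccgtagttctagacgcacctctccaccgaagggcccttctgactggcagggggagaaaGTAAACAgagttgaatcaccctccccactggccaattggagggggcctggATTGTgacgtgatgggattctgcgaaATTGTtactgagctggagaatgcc

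Klf15: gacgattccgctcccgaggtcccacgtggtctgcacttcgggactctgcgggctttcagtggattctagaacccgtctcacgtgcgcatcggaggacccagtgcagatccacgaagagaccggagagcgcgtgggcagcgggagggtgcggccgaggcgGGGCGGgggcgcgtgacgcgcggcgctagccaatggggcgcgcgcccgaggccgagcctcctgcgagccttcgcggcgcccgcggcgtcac

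Over the 28 genes with a promoter entry, GGGCGG was in 23 (82.1%) of the windows against 32.7% of 32817 RefSeq promoters of the same length, and the median CpG ratio was 0.844 against 0.373. GTAAACA was in 3 of the 28 (Foxa1, Klf9 and Sox12), or 10.7% against 3.16%. ACAAT was in 3 (Klf8, Klf9 and Sox5), or 10.7% against 27.7%. The CACCC box GGGTGTGG (3.19% of all promoters) and the GATA motif AGATAA (9.99%) were in none. The GC box was in 6 of 8 windows of genes that rose, 1 of 3 of genes that fell and 15 of 16 of genes that did not pass the test. These are letter matches on both strands, and no binding was measured. The starts used for Foxn3 and Sox5 lie inside the genes, 113508 and 118681 bases from the nearer annotated end. Neither of their windows held a GC box.

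SP factors share the zinc fingers of KLF proteins. Among the 5 tested, 1 rose and 0 fell, the same as at an unadjusted p under 0.05, by edgeR and by DESeq2, with a median log2 fold change of 0.09. By limma 20.0% of the list passed, against 34.3% of all tested genes. Sp7, the osteoblast factor osterix, went from 0 to 94 reads (1.69, 1.36 and 1.58 normalised counts in the knockout, at least 11.1-fold higher, adjusted p = 0.00144). Sp7 reached the filter through the knockout alone. With the filter at 5 it was not tested, and 0 SP factors rose. Sp1 and Sp3, the ubiquitous members, stood at -0.07 (SE 0.47) and -0.18 (SE 0.24).

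Adipogenic regulators that act with KLF, FOX and GATA factors held several large rises. Of 10 tested 5 rose and 1 fell, where 17.2% of all tested genes rose and 17.1% fell, with a median log2 fold change of 1.22. The lower count was 2 by edgeR and by DESeq2, 4 with the suffix block and 0 with the filter at 5. The knockout lay above the wild type without overlap in 5 of the 10 and below it in 4. Of those below, Cebpb (278 and 394 against 136 to 267 normalised counts), Cebpd (122 and 117 against 53.9 to 94.1) and Prdm16 (1.95 and 5.39 against 0.799 to 1.43) did not pass. Their log2 fold changes were -0.75, -0.68 and -1.34 (limma adjusted p = 0.137, 0.113 and 0.0557). Ebf1 read 4.42 and 2.02 normalised counts in the wild type and 216, 255 and 231 in the knockout (72.7-fold, log2 fold change 6.05, SE 0.33, adjusted p = 8.61e-05). Cebpa, a driver of the fat cell program, read 1.13 and 1.45 against 45.8, 63.7 and 98.5 (53.7-fold, 5.22, SE 0.38, adjusted p = 0.00024). Ebf2 rose 22.1-fold (3.99, SE 0.32, adjusted p = 0.000306). Pparg, the master regulator of fat cells that Klf5, Klf9 and Klf15 are known to induce and that Klf2 and Gata2 repress, read 10.8 and 4.45 against 229, 431 and 144 (35.1-fold, 5.02, SE 0.54, adjusted p = 0.000958). Zfp423 rose too. Ppargc1a, a coactivator of mitochondrial genes, went from 83 wild-type to 2 knockout reads (rate ratio 58.2, exact 95% interval 15.6 to 488), and it was not tested when a wild-type library was left out, because it reaches the filter only through both.

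Of the GATA genes Gata6 fell. Gata6 (ENSMUSG00000005836, chr18:11052064-11085635), a factor of endoderm, heart and mesothelium, read 18.5 and 19.6 normalised counts in the wild type and 4.42, 6.28 and 5.02 in the knockout. Both groups were tight and apart, and the mean fell from 19.1 ± 0.813 to 5.24 ± 0.95, 3.64-fold lower (log2 fold change -1.78, SE 0.30, adjusted p = 0.00523). Without wild-type SE the adjusted p was 0.0527, the highest of a range that starts at 6.57e-06, and no GATA gene then fell. Of the 4 mesothelial or epithelial markers in the table Msln, Krt18 and Krt19 moved in the same direction and Krt7 in the other, and their part in this result was not tested. Gata2, which keeps blood progenitors and preadipocytes undifferentiated, read 11.4 and 17.5 against 10.8, 7.30 and 14.1, with overlapping groups (-0.43, SE 0.38, adjusted p = 0.426). Gata3, a factor of T cells and epithelia, was near the detection limit at 0.892 and 1.61 against 0.705, 0.0757 and 1.505 (-0.62, adjusted p = 0.415).

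Among 9 GATA cofactors and GATA-type zinc finger proteins 2 rose and 1 fell, with a median log2 fold change of -0.43. That is 33.3% of the list, near the 34.3% of all tested genes that passed. Runx1, a partner of GATA factors in blood formation, read 33.4 and 37.5 normalised counts against 99.9, 73.8 and 84.0 (2.42-fold, 1.26, SE 0.23, adjusted p = 0.0082). The genes around Runx1 had a median log2 fold change of 0.87, and those around Trps1 -0.68. Lmo2, a bridge protein in GATA complexes, went from 2 to 150 reads (rate ratio 53.5, exact 95% interval 14.6 to 446, adjusted p = 0.0106). Trps1, a GATA-type repressor of cartilage and hair, read 48.4 and 57.1 against 12.1, 13.9 and 30.7 (2.80-fold lower, -1.58, SE 0.43, adjusted p = 0.031). Without wild-type C1 none of these rose and without wild-type SE 1 did. The lower count was 0 without wild-type SE, knockout C1 or knockout C2, and 3 without knockout SE.

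Ranked by normalised count per kb of exon, which allows genes to be compared, Sox4 was the highest in the wild type at 89.7, followed by Klf6 at 55.3, Klf10 at 41.4, Sox9 at 37.7, Foxm1 at 21.0 and Foxc1 at 18.9. The wild-type libraries of Sox4 (78.1 and 101) lay above those of Klf6 (70.4 and 40.1), whereas Klf6, Klf10 and Sox9 overlapped, as did Foxm1 and Foxc1. In the knockout Klf2 led at 124, followed by Klf6 at 104, Foxs1 at 49.6, Klf9 at 35.5, Foxc1 at 26.4 and Sox4 at 25.4. The knockout libraries of Klf2 (109 to 134) and Klf6 (80.5 to 125) overlapped, so their order in the knockout was not resolved. Both lay above Foxs1 (33.2 to 59.5), and from Foxs1 to Sox4 each neighbour in the order overlapped the next. Klf6 and Foxc1 were among the 6 highest in both genotypes, and Sox4 was too, from the first place to the sixth.

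**Figure D5:**
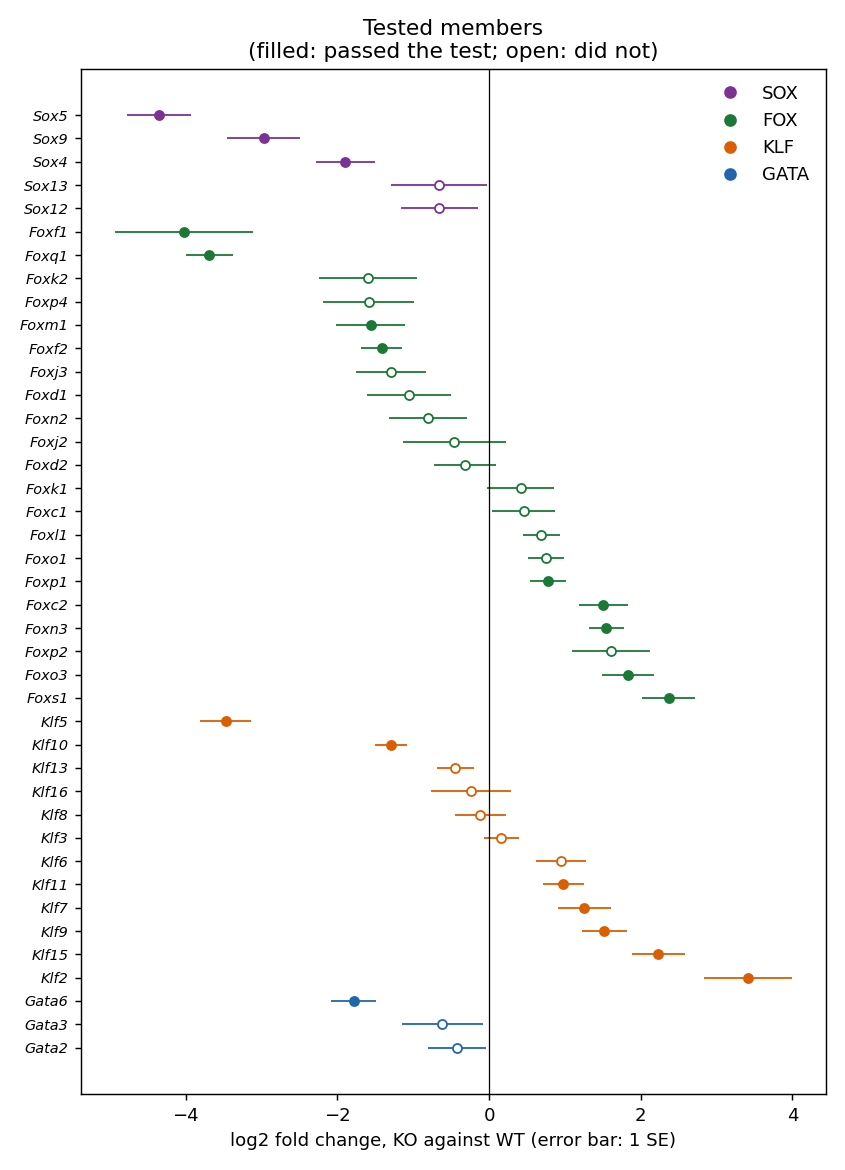
Log2 fold change, knockout against wild type, of the tested SOX, FOX, KLF and GATA genes that are reported, ordered within each family, with bars of 1 SE, filled where the test was passed. Values drawn reach from -4.35 for Sox5 to 3.41 for Klf2, all 5 SOX and all 3 GATA genes lie below 0 (Sox13 lay above 0, at 0.32, without wild-type SE), and FOX and KLF genes lie on both sides.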

How the data were processed

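Gene-level signal was deposited by the authors as a table of normalised counts for 5 libraries, per the file headers: read counts scaled by library size to the range of CPM. Libraries came from a stranded mRNA kit and were read as single ends on a NextSeq 500 (protocols in the labels). As tools, STAR 2.5, featureCounts 1.5.2 and edgeR appear, with no role given, in the submitters' processing notes. The genome build and the strand setting of counting are not given in the sources used here. Each value was a whole multiple of the value of 1 read within 0.02 of a read (100% of values), and the library sizes this implies matched TMM-scaled sizes (CV 0.00012%). Totals recovered were 13605555 to 26658725 reads.

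Log2 of the deposited value plus a pseudocount of 0.5 was tested with limma 3.58.1 (lmFit, then eBayes using a mean-variance trend) over genes with at least 1 in at least 2 libraries, with genotype as the only term, 3 residual degrees of freedom and Benjamini-Hochberg adjustment over 12484 genes at 0.05. A log2 fold change on this scale understates the change of low genes. For a group without reads, 3 reads in each of its libraries gave a lower bound, and for a group with 1 to 3 reads the ratio of read rates has an exact 95% interval. Libraries of a group were further apart than counting noise allows (chi-square per degree of freedom 62.3 to 220), so each counted as 1 sample. Separate animals or cultures are not named for the libraries, and p-values then measure only the spread between these libraries, which may be technical. On simulated counts 42% of 2-fold and 100% of 4-fold, 8-fold and 16-fold changes were recovered among 12231 genes, with 10 false calls. The simulation gave every gene the same dispersion and held no difference between SE and C libraries. Its spread was not taken from these libraries, so the recovered shares need not hold for them.

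Alternatives (18) were plain CPM, quantile and median-of-ratios scaling, pseudocounts of 0.1 and 1, a filter at 5 or none, eBayes robust or with no trend, the suffix as a block, leaving out both SE libraries or each library in turn, and DESeq2 1.42.0 and the quasi-likelihood test of edgeR 4.0.16 on recovered reads, in R 4.3.3. 1 gene that the rule found is in the counts and is not reported here; values per library are given for those that passed the test, for the most abundant of each family and for neighbours within 500 kb, and up to 3 genes are given from each list of related genes. Further genes of those lists, and Mthfsd, Foxa1, Foxk2, Foxp4, Foxj3, Sox12 and Sox13, were given values after their values were seen. The genes, the lists and the tests were chosen with earlier results of these data known. Window medians cover the 25 tested genes on either side. Coordinates are those of GENCODE M21 (GRCm38) by Ensembl identifier, and promoters those of RefSeq (GRCm38.p6).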

Additional observations from a re-analysis of the deposited data

How the results depend on the processing

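With the suffix as a block 3530 genes were higher and 4038 were lower, against 2150 and 2129 without it. When single libraries were left out, the genes higher ran from 1049 to 2332 and the genes lower from 594 to 2632, and the SOX, FOX, KLF and GATA genes higher ran from 5 to 10 and those lower from 4 to 15. The lowest counts came without wild-type C1 (1134 and 594 genes) and without wild-type SE (1049 and 627), where 65.6% and 62.6% of called genes were higher instead of 50.2%. Without knockout C2 the counts were 1461 and 1280. Over 737 alternative fits of single SOX, FOX, KLF and GATA genes, 666 kept direction and side of the threshold, 35 (8 genes) newly passed, 29 (12 genes) no longer passed and 7 (5 genes) changed sign. The changes of sign were Foxj2 (0.26), Klf16 (0.21), Klf8 (0.22) and Sox13 (0.32) without wild-type SE, Klf16 without knockout C1 (0.03), and Klf8 (0.10) and Klf3 (-0.0198) without both SE libraries, none of which passed the test in these fits, and the cause was not tested. With single libraries left out, log2 fold changes ran from -1.17 to 0.26 for Foxj2, -0.69 to 0.21 for Klf16, -0.45 to 0.22 for Klf8 and -1.64 to 0.32 for Sox13. With the suffix block 29 of the 42 genes passed, with DESeq2 27, with edgeR 22 and without both SE libraries 24. Each of the first 3 sets held all 21 genes of the main test and the last held 18, which lacked Foxp1 (adjusted p = 0.0632) and 2 genes, Foxq1 among them, that were not tested because they then failed the filter. For FOX genes alone 9 fell with the block or without knockout SE, 8 with DESeq2, 1 without wild-type C1 and 0 without wild-type SE (where those 2 genes were not tested either), and 8 rose with the block and 2 without wild-type C1. No paired analysis was possible because the columns carry none of the replicate numbers of the sample titles. Libraries matched by column suffix instead, C with C and SE with SE, are the suffix block above. Depth limits genes with few reads in a genotype, such as Foxp2, Foxa1, Foxl1 and Gata3.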
